A study of Mus musculus with 4 samples.

Results

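Imprinted genes, which are read from the copy inherited from a single parent, were examined in the subcutaneous white fat of mice on a high-fat diet. The set held 10 genes of growth and fat expansion, Mest, Nnat, Peg3, H19, Igf2, Ndn, Cdkn1c, Dlk1, Sgce and Plagl1, among 31492 names in the table. A probe belonged to the set when its gene name in the deposited table of non-normalized signals was 1 of these symbols, written there in capitals (MEST, NNAT, PEG3, H19, IGF2, NDN, CDKN1C, DLK1, SGCE, PLAGL1), which gave 21 of the 45281 probes on each array. The set was chosen by the differences between FtMT-Adip and WT on these same arrays, so the changes are given as a description. Of the 21 probes, 15 were above background on at least 2 of the 4 arrays and were fitted, and these cover 8 of the 10 genes. Sgce and Plagl1 had no such probe.

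The study compared wild-type (WT) mice with FtMT-Adip mice, which carry mitochondrial ferritin, an iron-storing protein of the mitochondrion, as a transgene in fat. Both groups were C57BL/6, 8 to 12 weeks old and fed for 3 weeks a high-fat diet to which, per the series' design, doxycycline was added. Each group has 2 arrays, numbered 1 and 2 in the sample titles. The sources used here do not give the promoter that drives the transgene, the sex of the mice, whether WT mice carry any piece of the transgene system, or whether an array holds RNA of 1 mouse or of a pool. The p-values below therefore measure only the spread between these arrays.

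In imprinted genes, methylation laid down in the egg or sperm marks which parental copy stays active. As a group they are known for control of growth before birth and of nutrient stores after it, with genes read from the paternal copy, such as Igf2, Mest and Peg3, often promoting growth and genes read from the maternal copy, such as H19 and Cdkn1c, often restraining it. In mouse fat, Mest is known as a marker of fat cells that are enlarging on a high-fat diet, and Dlk1 and Ndn are known as inhibitors of the step from precursor to fat cell.

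The probes called lower in FtMT-Adip belonged to Mest, Nnat and Peg3, and so the promoter windows of these genes are shown. They run from 250 bases before to 50 bases after the transcription start in RefSeq on GRCm38.p6, 5′ to 3′ on the strand of the gene, and 7 of the 10 genes had such a window. Capitals mark matches to any of the motifs searched on both strands, which were the GC box GGGCGG, the NRF1 palindrome (the unbroken capitals of the Nnat window), the TATA box TATAAA and the CCAAT box CCAAT. The Mest window is chr6:30737800-30738099 on the plus strand, 1 of several that RefSeq lists for this gene. The Nnat window is chr2:157559828-157560127 on the plus strand, and the Peg3 window is chr7:6730370-6730669 on the minus strand.
Mest: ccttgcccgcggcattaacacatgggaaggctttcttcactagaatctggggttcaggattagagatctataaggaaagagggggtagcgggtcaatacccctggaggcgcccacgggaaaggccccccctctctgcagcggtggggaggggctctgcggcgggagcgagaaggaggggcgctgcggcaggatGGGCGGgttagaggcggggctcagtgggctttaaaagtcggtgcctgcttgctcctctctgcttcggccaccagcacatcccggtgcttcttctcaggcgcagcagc
Nnat: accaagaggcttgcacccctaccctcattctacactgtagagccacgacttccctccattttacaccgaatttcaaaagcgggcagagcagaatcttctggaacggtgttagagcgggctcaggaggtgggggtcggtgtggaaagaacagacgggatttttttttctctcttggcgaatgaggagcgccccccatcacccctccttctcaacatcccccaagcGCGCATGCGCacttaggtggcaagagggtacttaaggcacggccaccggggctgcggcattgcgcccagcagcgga
Peg3: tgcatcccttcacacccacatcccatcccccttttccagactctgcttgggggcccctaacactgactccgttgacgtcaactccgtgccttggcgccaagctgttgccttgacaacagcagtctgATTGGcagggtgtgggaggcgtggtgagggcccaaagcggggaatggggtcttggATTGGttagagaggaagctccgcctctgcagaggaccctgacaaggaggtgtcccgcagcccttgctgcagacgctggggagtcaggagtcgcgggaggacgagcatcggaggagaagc
No motif was present in all of them, and no matches overlapped. Mest held 1 GC box, which 35.7% of 32851 promoter windows also hold. Nnat held 1 NRF1 palindrome, found in 0.971% of windows, and Peg3 held 2 CCAAT boxes, read here as ATTGG on the printed strand, a motif found in 37.4% of windows. CpG dinucleotides, the sites of the methylation on which imprints rest, numbered 17 in the Mest window, 17 in the Nnat window and 13 in the Peg3 window, against a median of 7 over all windows. Another window that RefSeq lists for Mest, chr6:30733256-30733555, held 8. Fewer CpG than in the printed windows were found in 68.6%, 68.6% and 62.1% of all windows, respectively. Methylation was not measured in these samples.

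Signals are bead intensities on a linear scale without background subtraction, and changes are differences of background-corrected, quantile-normalized log2 values, FtMT-Adip minus WT, from limma. Folds are these changes on a linear scale, so they are larger than the ratios of the uncorrected signals printed beside them. A probe counted as above background on an array when under 5% of 1479 probes for olfactory and vomeronasal receptors, taken as not expressed in fat, were as bright. The 95th percentile of those receptor probes lay between 119.6 and 123.5 units. A probe was called when its Benjamini-Hochberg adjusted p over all 20797 tested probes was under 0.05. This was met by 7.44% of tested probes, 4.16% lower and 3.28% higher in FtMT-Adip. The median change of all tested probes was 0.005. Adipoq, the gene of the fat hormone adiponectin, gave 13871.8 and 14168.4 units in WT and 4405.4 and 6069.4 in FtMT-Adip, so all 4 arrays carried strong fat cell signal. The probe for Ftmt, the gene of mitochondrial ferritin, gave 102.1 and 110.6 units in WT against 104.9 and 106.8 in FtMT-Adip, below background on every array. The sources used here do not say whether this probe reads the transgene, so the genotype labels could not be checked with it, and every direction below rests on the labels.

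Of the 15 tested probes, 8 were called lower (3 of Mest, 3 of Nnat and 2 of Peg3), 2 were called higher (both of H19) and 5 were not called, to be read beside the 7.44% called among all tested probes. The arrays of the groups did not overlap in 10 probes that were lower and 3 that were higher, where 51.5% of all tested probes showed no overlap, 25.9% lower and 25.6% higher. Since this contrast was in view when the genes were chosen, no inference is drawn from these counts.

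**Figure D1:**
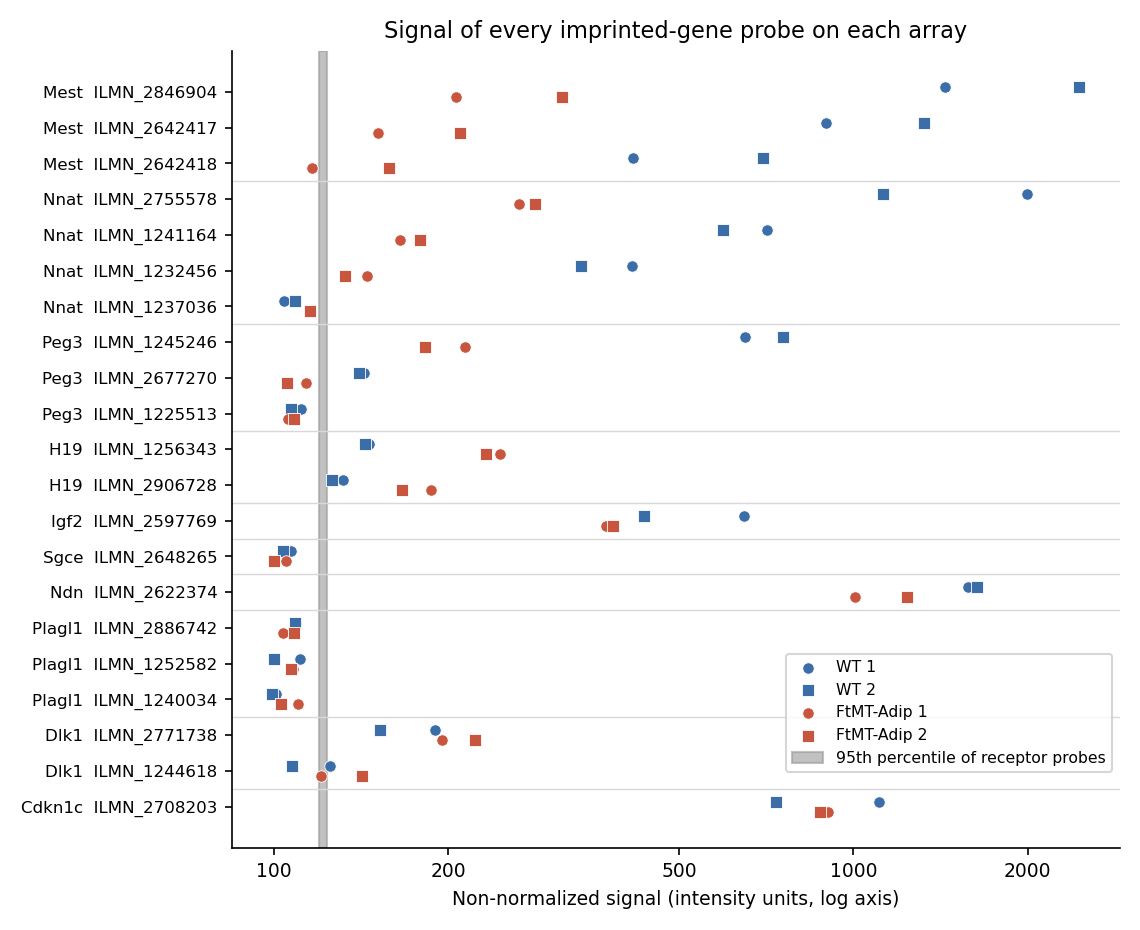
Non-normalized signal (intensity units, log axis) of each of the 21 probes on each array, with WT in blue and FtMT-Adip in red, array 1 as a circle and array 2 as a square. The grey band spans the 95th percentile of the receptor probes over the arrays, from 119.6 to 123.5 units. All Mest, Nnat and Peg3 probes above the band in WT lie further left in FtMT-Adip, H19 lies to the right, and Sgce and Plagl1 stay left of the band.

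Mest, also called Peg1, encodes a membrane protein of the alpha/beta hydrolase fold and is read from the paternal copy. It was lower in FtMT-Adip in all 3 of its probes, by 8.79 and 8.04-fold in those above background on every array and by 5.70-fold in the third, which was above background on 1 of 2 FtMT-Adip arrays. The brightest, ILMN_2846904, read 1438.3 and 2455.5 units in WT and 205.8 and 314.4 units in FtMT-Adip. Both WT arrays stood far above both FtMT-Adip arrays, and within each group array 2 was the brighter. Its normalized log2 level was 10.81 ± 0.61 (SD, n = 2) in WT and 7.67 ± 0.46 in FtMT-Adip, a change of -3.14 (SE 0.298, 95% interval -3.81 to -2.46). Ordered from the largest fall, that change stood at rank 2 of the 20797 tested probes. ILMN_2642417 repeated the order of the arrays at a lower brightness, with 896.2 and 1322.8 units in WT and 151.1 and 209.4 in FtMT-Adip, for a change of -3.01 (SE 0.256). The dimmest, ILMN_2642418, read 416.2 and 697.4 units in WT against 116.5 and 158.1 in FtMT-Adip, where array 1 was not above background, and its change was -2.51 (SE 0.295). Array 2 exceeded array 1 in each group in all 3 probes, and leaving out any single array moved the change of the brightest between -3.57 and -2.70.

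Nnat encodes neuronatin, a small proteolipid of the endoplasmic reticulum, from the paternal copy of a gene nested within an intron of Blcap. It was lower in 3 of its 4 probes, by 3.64 to 6.35-fold. ILMN_2755578 read 1997.1 and 1123.2 units in WT and 264.3 and 282.2 units in FtMT-Adip. Here WT array 1 was the brighter, opposite to Mest, while the FtMT-Adip arrays were alike, at a log2 level of 7.80 ± 0.00 (SD, n = 2). The change was -2.67 (SE 0.228, 95% interval -3.18 to -2.15), at rank 8 of all tested probes from the largest fall. The change of ILMN_1241164 was -2.30 (SE 0.150), from 709.1 and 596 units in WT to 165 and 178.3 in FtMT-Adip. That of ILMN_1232456 was -1.86 (SE 0.162), from 414.7 and 339.3 units to 144.7 and 132.5. In all 3 probes WT array 1 was the brighter WT array, and both WT arrays stood above both FtMT-Adip arrays. The remaining probe, ILMN_1237036, gave 104.2 and 108.7 units in WT and 115.4 and 115.4 in FtMT-Adip, not above background on any array, so it carries no reading of the gene.

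Peg3 encodes a large zinc finger DNA-binding protein, read from the paternal copy and known in mice for maternal behaviour, growth and fat stores. ILMN_1245246 read 651.2 and 756.2 units in WT and 213.5 and 182.1 units in FtMT-Adip, with no overlap. The log2 level was 9.37 ± 0.22 (SD, n = 2) in WT and 7.22 ± 0.27 in FtMT-Adip, a change of -2.15 (4.43-fold, SE 0.187, 95% interval -2.57 to -1.72). A dim probe, ILMN_2677270, read 142.9 and 140.1 units in WT but only 113.6 and 105.1 in FtMT-Adip, not above background there. Its fitted change was -0.62 (SE 0.105). Since the FtMT-Adip side is below background, the difference is stated as at least 1.27-fold, taken on the normalized scale against the lowest value above background on each array. That probe was not called on the authors' own normalized values, where the change was -0.45. ILMN_1225513 was not above background on any array (105.8 to 111.2 units).

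H19 and Igf2 lie side by side and share enhancers, with H19, a long non-coding RNA, read from the maternal copy and Igf2, an insulin-like growth factor, from the paternal copy. H19 was the gene of the set with probes called higher. ILMN_1256343 read 145.7 and 143.3 units in WT and 245.5 and 232.3 in FtMT-Adip. The WT arrays were close to each other and below both FtMT-Adip arrays, and the normalized change was 0.95 (1.93-fold, SE 0.137, 95% interval 0.64 to 1.26). ILMN_2906728 read 131.6 and 126.1 units in WT and 186.4 and 166.2 in FtMT-Adip, a change of 0.63 (SE 0.133). These WT signals sit just above the receptor probes. The call of ILMN_2906728 was lost without WT 1 (0.67), without WT 2 (0.60), without FtMT-Adip 1 (0.48) and on the authors' normalized values (0.92), always with the same sign. On the authors' values ILMN_1256343 changed by 1.52.

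Igf2, measured by ILMN_2597769, read 646.6 and 435.1 units in WT and 373.9 and 384.2 in FtMT-Adip. Both FtMT-Adip arrays were below both WT arrays, but the WT arrays were themselves far apart. The change of -0.56 (SE 0.197, 95% interval -1.01 to -0.12) was not called. Without WT 2 it became -0.84 and was called, and without WT 1 it was -0.29, so its size depends on which WT array is kept. The opposite signs of H19 and Igf2 were not tested as a difference.

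Ndn and Cdkn1c restrain the cell cycle. Ndn encodes necdin, which binds E2F1 and is read from the paternal copy. Its probe ILMN_2622374 read 1578.3 and 1634.7 units in WT and 1005.2 and 1236.4 in FtMT-Adip. The groups did not overlap, and the change of -0.51 (SE 0.158, 95% interval -0.87 to -0.15) was not called. Cdkn1c encodes the cyclin-dependent kinase inhibitor p57, read from the maternal copy. ILMN_2708203 read 1108 and 733.9 units in WT and 902.7 and 875.1 in FtMT-Adip, with the FtMT-Adip arrays between the WT arrays. Its change was -0.01 (SE 0.195), with a 95% interval from -0.46 to 0.43 that spans falls and rises of that size. The sign turned to 0.24 without WT 1 and to 0.07 without FtMT-Adip 2.

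Dlk1, also called Pref-1, is a membrane protein of preadipocytes that blocks their differentiation and is read from the paternal copy. ILMN_2771738 read 189.9 and 152.6 units in WT and 194.9 and 222 in FtMT-Adip. The lower FtMT-Adip array was close to the higher WT array, and the change of 0.35 (SE 0.165, 95% interval -0.02 to 0.73) was not called. ILMN_1244618, near background with 125.1 and 107.6 units in WT and 120.7 and 141.7 in FtMT-Adip, gave 0.26 (SE 0.138), not called either.

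Sgce encodes epsilon-sarcoglycan, a part of the membrane complex that ties muscle and other cells to their matrix, and Plagl1 encodes a zinc finger transcription factor, both read from the paternal copy. The Sgce probe gave 107 and 103.8 units in WT and 104.9 and 100.1 in FtMT-Adip. The 3 Plagl1 probes ranged from 99.3 to 110.7 units over all arrays. None of these was above background on any array, so the data give no change for either gene.

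**Figure D2:**
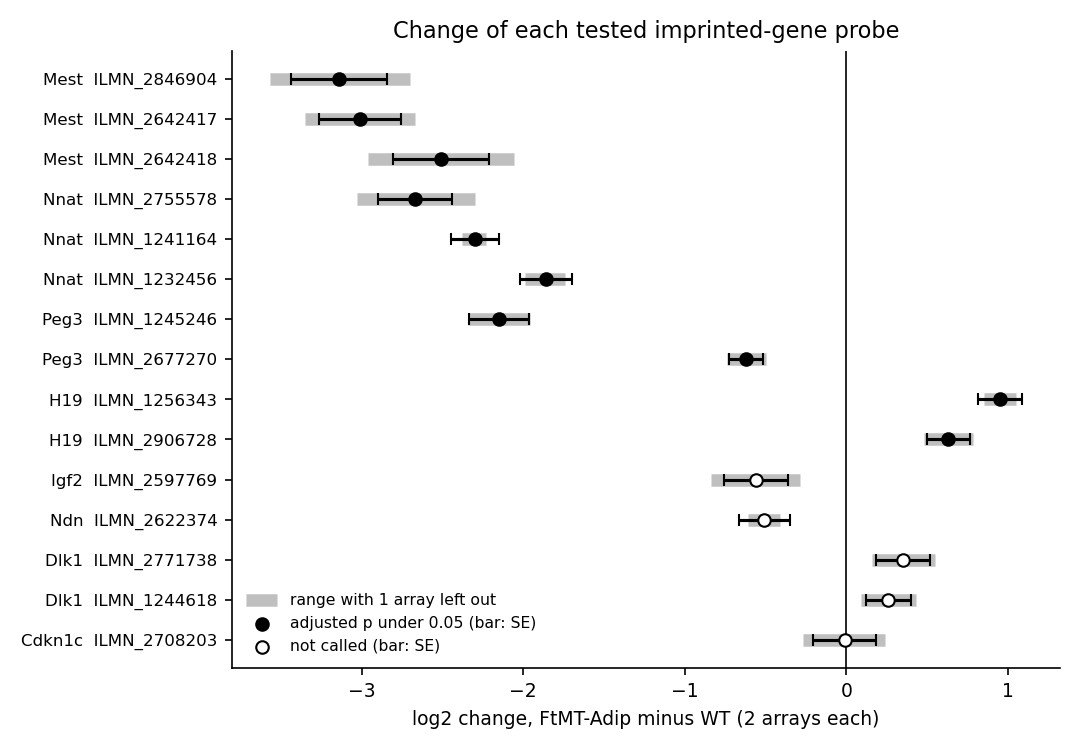
Log2 change (FtMT-Adip minus WT, 2 arrays each) of the 15 tested probes, with the SE as a bar and, in grey, the range when 1 array is left out. Filled points had an adjusted p under 0.05. The brightest Mest probe stayed between -3.57 and -2.70, and the grey range of Cdkn1c crosses 0.

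Ordered by the change of the brightest tested probe, the genes ran from Mest (-3.14) through Nnat (-2.67), Peg3 (-2.15), Igf2 (-0.56), Ndn (-0.51), Cdkn1c (-0.01) and Dlk1 (0.35) to H19 (0.95). The 95% intervals of Mest and Nnat overlapped, as did those of Nnat and Peg3, and those of Igf2 and Ndn were nearly the same. The interval of the brightest Peg3 probe (-2.57 to -1.72) lay apart from that of Igf2 (-1.01 to -0.12). That of the dim Peg3 probe ILMN_2677270 (-0.86 to -0.38), below background in FtMT-Adip, lay within the Igf2 interval. Differences between these changes were not tested. Levels of different genes are not compared, because probes differ in how strongly they bind.

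**Figure D3:**
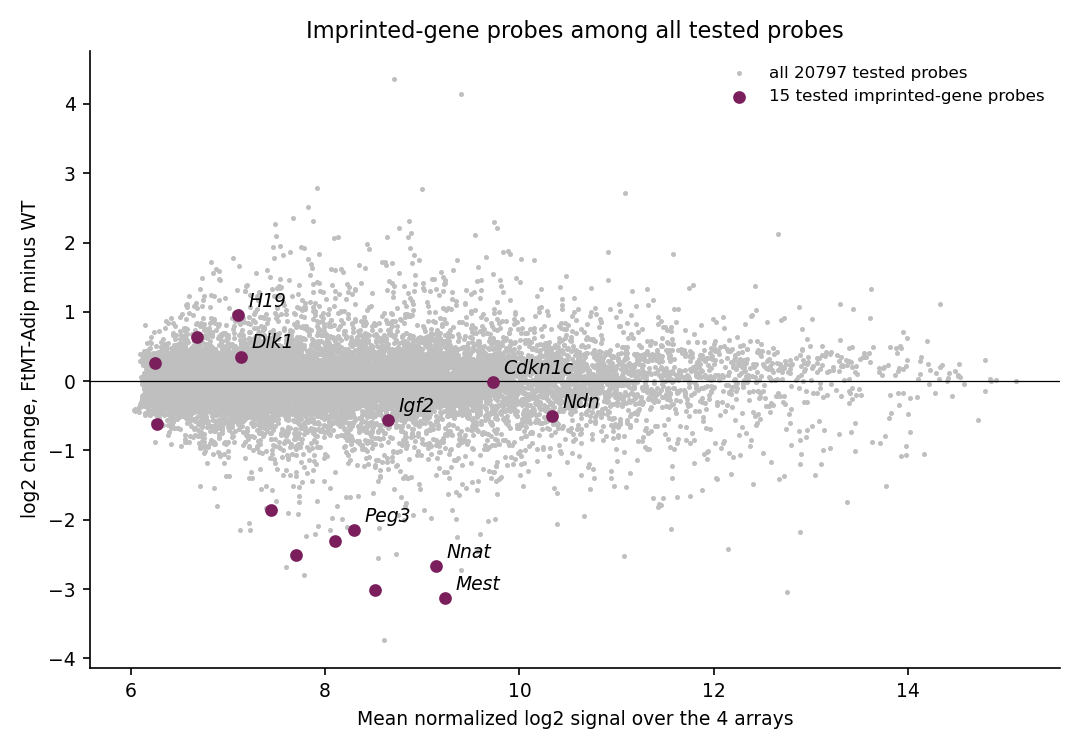
Log2 change (FtMT-Adip minus WT) against the mean normalized log2 signal over the 4 arrays for all 20797 tested probes (grey), with the 15 imprinted-gene probes in purple and the brightest probe of each gene named. Mest, Nnat and Peg3 lie at the lower edge of the cloud, with changes of -3.14, -2.67 and -2.15, while Cdkn1c lies on the zero line.

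The likeness of profiles to Mest was measured over all 4 arrays, by a distance that takes in both the size of the change and the order of the arrays. After centring each probe's log2 values on their mean, the Euclidean distance to the brightest Mest probe was 0.20 and 0.63 for the other Mest probes, 1.31 for the brightest Nnat probe and 1.29 for the brightest Peg3 probe. For Nnat, 29 probes that are not Mest probes lay nearer, and for Peg3 28 did. At the other end stood H19, at 4.18 and 3.88. The nearest probes of other named genes were S100a8 at 0.59, Lipf at 0.65, Hp at 0.69, Tph2 at 0.69 and Fgf13 at 0.70. S100a8 encodes a calcium-binding protein of neutrophils, Lipf a gastric lipase, Hp haptoglobin, Tph2 an enzyme of serotonin synthesis and Fgf13 an intracellular relative of the fibroblast growth factors. They share with Mest a fall of -3.73 to -2.50 and a brighter array 2 in WT. In FtMT-Adip array 2 was also the brighter, except for Lipf, which was near background there and almost level (log2 6.25 and 6.26). With 4 arrays these distances are a description.

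Imprinted genes often lie in clusters, and the neighbours of the set were examined next. Klf14, a transcription factor gene near Mest that is read from the maternal copy, was matched by a RefSeq synonym to 1 probe, named 5330411L03RIK. It read 172 and 199.6 units in WT and 127.7 and 131.2 in FtMT-Adip. The FtMT-Adip signals were close to the 95th percentile of the receptor probes on those arrays (120.7 and 123.5 units). The WT signals were further above it. It was lower by 0.77 on the log2 scale (change -0.77, SE 0.141, limma adjusted p = 0.0132), a call lost without FtMT-Adip 1 (adjusted p = 0.0604) and on the authors' normalized values (-0.81, adjusted p = 0.205). Copg2, a coat protein gene that overlaps the end of Mest, read 186.3 and 174.9 units in WT and 162.8 and 230.5 in FtMT-Adip. The FtMT-Adip arrays lay on either side of WT, and the change of 0.09 (SE 0.189, limma adjusted p = 0.835) was not called. Blcap, the host gene of Nnat, read 2447.6 and 2113.4 units in WT and 1490.6 and 1696.8 in FtMT-Adip, a change of -0.47 (SE 0.147, limma adjusted p = 0.100) that was not called. Thus the changes of Mest and Nnat stood beside changes of -0.77, 0.09 and -0.47 in genes of the same clusters, and the difference was not tested.

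Near the other genes no neighbour was called. Snrpn, in the cluster of Ndn, read 1410.2 and 1276 units in WT and 674.5 and 1152 in FtMT-Adip, with most of the difference in FtMT-Adip 1, and changed by -0.61 (SE 0.227, limma adjusted p = 0.158). Ppp1r9a, in the cluster of Sgce, changed by -0.58 (SE 0.244, limma adjusted p = 0.216), with WT 1 at 563.8 units and the other arrays between 296.3 and 322.4. Meg3, the maternally read RNA beside Dlk1, changed by 0.17 (SE 0.189, limma adjusted p = 0.686). Kcnq1, Phlda2, Ins2, Magel2, Usp29, Zim1, Asb4, Calcr and Peg10 were not above background on enough arrays to be tested. For Rian no probe was matched.

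Over 63 other imprinted genes, 58 were on the array and 36 had a tested probe. By the brightest tested probe, 1 of the 36 was called lower (Klf14) and 0 higher in the limma fit, where 8.75% of all 11582 genes tested in this way were called, 4.77% lower and 3.99% higher. At an unadjusted p under 0.05 there were 13 of the 36, beside 23.8% of all genes tested. Changes ranged from -0.77 to 0.55 with a median of -0.11, beside 0.02 over all genes, and 21 were negative against 15 positive. Dcn, which encodes the matrix protein decorin, was called higher in a dimmer probe (0.58) but not in its brightest (0.31). The count of lower calls became 0 without FtMT-Adip 1 or on the authors' values, and 2 without WT 2 or without FtMT-Adip 2.

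**Figure D4:**
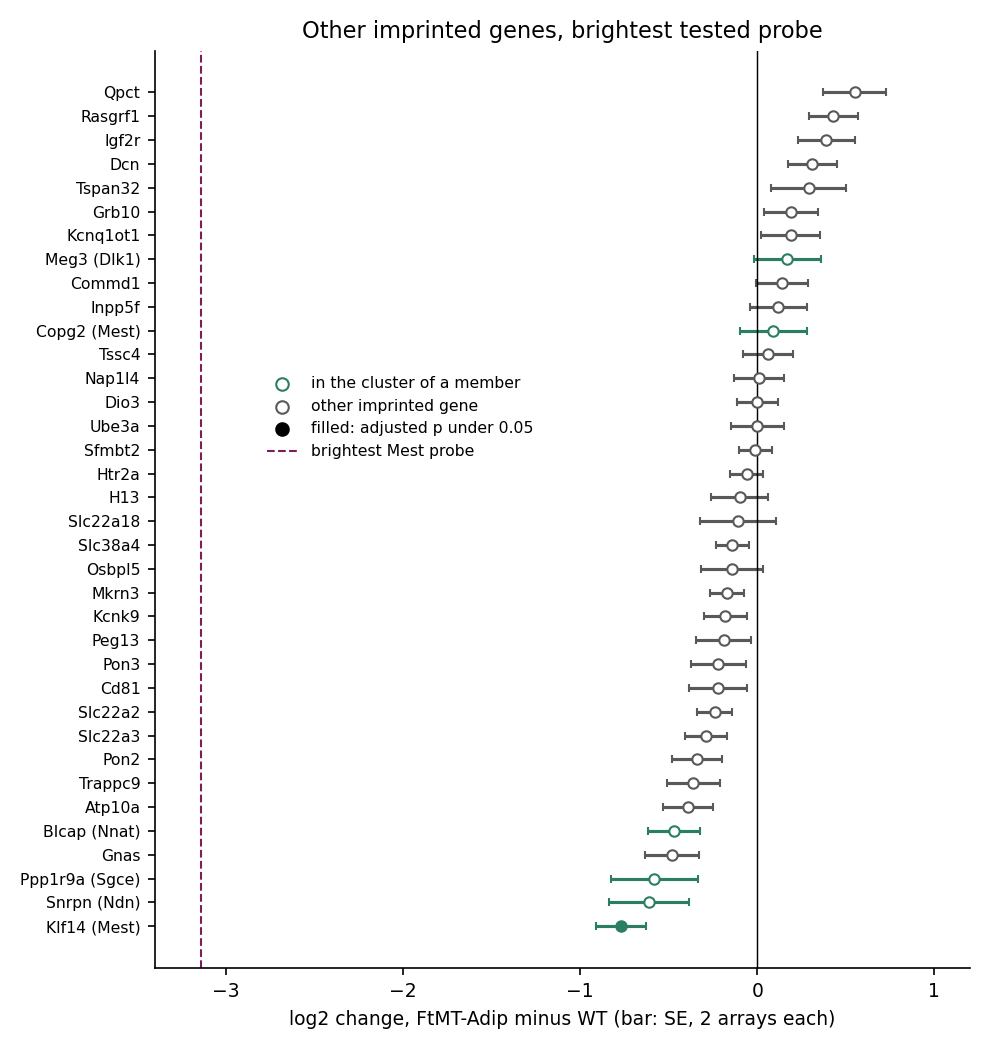
Log2 change (FtMT-Adip minus WT, bar: SE, 2 arrays each) of the brightest tested probe of 36 other imprinted genes, with genes in the cluster of a member in green and the member in brackets. The filled point, Klf14 at -0.77, is the called gene, and the dashed line marks the brightest Mest probe at -3.14, to the left of all 36.

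Genes reported together with Mest in expanding mouse fat were followed as a list of 3, and all 3 were called lower, with a median of -1.93. Of all genes tested by their brightest probe, 4.77% were called lower. The list was drawn up with the fall of Sfrp5 already known from these data, so its direction is not independent of them. Sfrp5, a secreted antagonist of Wnt signalling, read 508.4 and 542.2 units in WT and 140.9 and 161.5 in FtMT-Adip, a change of -2.23 (SE 0.159, limma adjusted p = 0.000441). Bmp3, a member of the bone morphogenetic protein family, read 935.2 and 1038.7 units in WT and 244.7 and 359.6 in FtMT-Adip, a change of -1.93 (SE 0.205, limma adjusted p = 0.0014). Both kept their groups wide apart. Npr3, the clearance receptor for natriuretic peptides, had 2 of its 3 tested probes called. By its brightest probe it read 3405.7 and 2987.2 units in WT and 925.6 and 1817.9 in FtMT-Adip. Its change of -1.29 (SE 0.261, limma adjusted p = 0.0199) was not called without WT 1 (adjusted p = 0.0641).

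Partners and relatives of the set, such as receptors of Igf2, other sarcoglycans and cell cycle genes, gave 1 gene lower and 1 higher among 18 tested of 20, with a median change of 0.05. Of all genes tested by their brightest probe, 8.75% were called. An unadjusted limma p under 0.05 was found for 8 of the 18, beside 23.8% of all genes tested. Sgcd, which encodes delta-sarcoglycan and so belongs to the complex of Sgce, read 208.5 and 198.6 units in WT and 132.3 and 132.2 in FtMT-Adip, a change of -0.90 (SE 0.121, limma adjusted p = 0.00359). On the authors' values it was -1.08 (adjusted p = 0.0555). Cdkn1a, which encodes p21, a relative of Cdkn1c, read 1084.4 and 1154.6 units in WT and 1779.8 and 2017.9 in FtMT-Adip, a change of 0.84 (SE 0.154, limma adjusted p = 0.0132) in 1 of its 3 tested probes. That call was lost without WT 1 (adjusted p = 0.0673) and on the authors' values (0.37, adjusted p = 0.576). The receptors were not called, with changes of 0.08 for Igf1r, 0.39 for Igf2r and -0.08 for Insr. Cdk4, a kinase that drives entry into the cycle, was called higher in its dimmer probe (0.53) and not in its brightest (0.50).

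Of 15 genes that maintain imprints, such as DNA methyltransferases and their partners, 9 were tested and 0 were called in the limma fit, with 1 at an unadjusted p under 0.05 and a median of 0.07. Dnmt3l, a cofactor of the de novo methyltransferases, read 254.5 and 269 units in WT and 334 and 443.6 in FtMT-Adip, a change of 0.62 (SE 0.172, limma adjusted p = 0.0643). Ezh2, a histone methyltransferase of the Polycomb group, changed by -0.22 (SE 0.135, limma adjusted p = 0.399). Dnmt3a, Zfp57, Tet1 and Tet3 were not above background on enough arrays to be tested.

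Markers of the cell types in fat moved between the same groups. Of 8 adipocyte markers, all tested, 5 were called lower and 0 higher in the limma fit (Adipoq -1.35, Lep -1.51, Cidec -1.41, Lipe -0.86, Fabp4 -0.48), with a median of -0.80. The others were not called, at -0.75 for Plin1, 0.07 for Pparg and 1.24 (SE 0.574) for Cidea, whose WT arrays read 839.1 and 225.5 units. The Fabp4 probe was dim, with 146.8 and 138.5 units in WT, not far above the receptor probes. Both FtMT-Adip arrays (113.4 and 119.6 units) were below background for it. The fall of this probe is therefore stated as at least 1.28-fold on the normalized scale, and it is a weak reading of the gene. The summed signal of the adipocyte list was 52890 and 55354 units in WT and 16116 and 29085 in FtMT-Adip, both lower. Lep, Adipoq and Cidec, all called lower, made up most of these sums. Of 8 macrophage markers 7 were called higher, with a median of 1.34 and examples in Gpnmb (2.72), Trem2 (2.29) and Cd68 (1.83), and their summed signal went from 7549 and 8559 units to 23423 and 19500. Gpnmb and Trem2 mark lipid-laden macrophages.

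Endothelial markers had 3 of 6 called lower (Cdh5 -1.02, Pecam1 -0.83, Tie1 -0.74), with sums of 5492 and 6533 units in WT and 3075 and 4066 in FtMT-Adip. Egfl7 (-0.80), Tek (-0.28) and Kdr (-0.02) were not called, though 1 of 3 tested Egfl7 probes, not the brightest, was. Of these sums, the brightest Egfl7 probe gave 2899.1 and 3974.5 units in WT and 1568.6 and 2266.5 in FtMT-Adip. Preadipocyte and fibroblast markers had 2 of 10 called higher, Ly6a (0.88) and Lum (0.71), with sums of 12768 and 12431 units against 19747 and 16344. Ly6a alone gave 5442 and 4659.9 units of these sums in WT and 9907.3 and 8028.8 in FtMT-Adip. Of the 10, 4 had a negative change, such as Zfp423 (-0.41, not called) and Pdgfrb (-0.34, not called). The endothelial sums were lower and the preadipocyte sums higher in both FtMT-Adip arrays. The 5 tested of 6 skeletal muscle markers had changes from 1.23 to 1.82 with 1 called, Acta1 (1.76), and sums of 1089 and 1103 units in WT against 5294 and 1840 in FtMT-Adip, highest in FtMT-Adip 1. Krt8 was the single tested marker of 6 for mammary and skin epithelium (0.89, not called), with 129.1 and 133.2 units in WT and 313.5 and 139.9 in FtMT-Adip, while Krt14, Krt5 and Epcam were below background on every array. Krt18, of the same list, was above background in FtMT-Adip 1 alone (186.1 units, against 104.9 to 109.8 on the other arrays). Lymphocyte markers (6 tested) and nerve markers (2 tested) had 0 calls and medians of 0.13 and 0.08, with 0 at an unadjusted p under 0.05.

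In bulk tissue fewer cells of a type and less RNA per cell cannot be told apart, and this touches every change above. The log2 changes of Mest (-3.14 and -3.01, brighter probes), Nnat (-2.67 to -1.86) and Peg3 (-2.15, bright probe) stood beside those of adipocyte markers. The marker changes ran from -1.51 to 1.24 on the same scale, with a median of -0.80, in the same arrays. The part of the shift in cell type markers in the changes of the imprinted genes was not tested. The counts of called markers depended on single arrays. Without any 1 array, lower adipocyte calls ranged from 3 to 6, lower endothelial calls from 1 to 4, higher preadipocyte calls from 0 to 3, higher muscle calls from 0 to 5 (5 without FtMT-Adip 2), and higher macrophage calls stayed at 7 (5 on the authors' values). FtMT-Adip 1 had the most muscle signal and the lowest adipocyte sum, and the adipocyte sum of FtMT-Adip 2 was also below both WT arrays. With any 1 array left out, the change of the brightest probe ranged from -3.57 to -2.70 for Mest. It ranged from -3.03 to -2.30 for Nnat and from -2.34 to -1.96 for Peg3. These ranges do not test the part of the cell type markers.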

How the data were processed

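Total RNA of subcutaneous white fat (2 WT and 2 FtMT-Adip arrays) was prepared with Trizol and a DNase I step, and its biotin-labelled product was read on Illumina BeadChips, per the labels' protocols. The labels name the MouseRef-8 v2 chip, while the tables hold 45281 probes per array, so the chip type is not settled. The authors deposited intensity values on a linear scale in a table titled non-normalized (lowest signal 91.3 to 93.1 per array) and in one titled normalized, by a method that the sources used here do not give. The series' value table equals the latter (largest difference 0), which is on a linear scale and not centred, with medians of 3.484 to 3.649. Over the non-normalized and normalized tables together, 8 further per-sample columns were not used. Total signal per array was 14143397 to 15086032, and 19717 to 20427 probes were above background. The number of arrays limits the precision.

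Non-normalized intensity was corrected with normexp (offset 50), quantile normalized, put on the log2 scale and fitted with lmFit and eBayes with a variance trend in limma 3.58.1 (R 4.3.3), two-sided, with Benjamini-Hochberg adjustment at 0.05. The prior had 6.86 degrees of freedom. Detection p-values were not among the columns used, so background was set from 1479 receptor probes, and a probe was tested when its empirical p was under 0.05 on at least 2 of 4 arrays. Bounds ("at least") compare normalized values with the lowest one above background per array. The fit was tested on simulated data. Tables and figures were made with Python 3.11.15, pandas 2.3.3 and matplotlib 3.10.9.

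Member probes were matched by table name. Other probes were named through RefSeq symbols (22864) or synonyms (11917), and 10500 kept the table's name, which can be old. A gene in a list is represented by its brightest tested probe, and its other probes may differ in call. Scan dates and slides are not given in the sources used here, and no batch was tested. The members and the gene lists were chosen with earlier results of these data known. Named were all member probes, the called genes of each list (up to 8) or else the 2 of smallest unadjusted p, the tested cluster neighbours and the 5 profiles nearest to Mest; other genes were named after their values were seen. Besides the main setting, 12 alternatives were run, covering background correction, normalization, filters, variance trend, replicate block and each array left out.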

Additional observations from a re-analysis of the deposited data

How the results depend on the processing

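The calls of Mest, of the 3 Nnat probes and of the brighter Peg3 and H19 probes held in direction and side of the threshold under every alternative that tested them; requiring signal above background on all 4 arrays left 1 Mest and 1 Peg3 probe untested, which left 6 lower calls among the member probes. On the authors' normalized values 323 probes were called higher and 372 lower over the whole table, against 682 and 866, with 1 member probe higher in place of 2 and 0 other imprinted genes lower in place of 1. Leaving out single arrays gave 313 to 777 probes higher (313 without FtMT-Adip 1, 380 without WT 1) and 339 to 849 lower (339 and 547 without the same arrays). Member probes called ranged from 1 to 2 higher and from 8 to 9 lower, other imprinted genes from 0 to 1 higher and from 0 to 2 lower, and genes of all other lists from 9 to 17 higher and from 8 to 14 lower, against 11 and 12. Cdkn1c turned from -0.01 to 0.24 without WT 1 and to 0.07 without FtMT-Adip 2, over a range from -0.27 to 0.24 with single arrays left out. The cause of these shifts was not tested. Over the 15 member probes, 169 values were on the same side, 5 lost the call, 1 gained it and 2 changed sign. The same count was made for the called genes of the other lists and the 5 profiles nearest to Mest. There 308 values held and 39 lost the call. All of these were called in the main setting, so none could gain a call.

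Whether same-numbered arrays were paired cannot be told from their numbers. Deviations of same-numbered arrays from their group means correlated at -0.0793 across probes, a value that cannot settle this. With the number as a replicate block, 525 probes were called higher and 700 lower, with 2 and 8 member probes, 0 and 1 other imprinted genes and 10 and 12 genes of the other lists. The median change over all tested probes stayed between -0.002 and 0.021 under all settings, and higher calls made up 41.0% to 48.0% of calls, 44.1% in the main setting. With 2 arrays per group and several probes within the range of the receptor probes, changes of dim probes such as the second H19, Peg3 and Dlk1 probes are the least certain, and no level is given for Sgce or Plagl1.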
